A study of Mus musculus with 6 samples.

Results

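The mitochondrial ribosome makes the proteins encoded by the mitochondrial genome, and its own protein subunits are encoded in the nucleus under the symbols Mrpl (large subunit) and Mrps (small subunit). These proteins are made in the cytosol and imported into mitochondria, where they assemble on ribosomal RNA of the mitochondrial genome. In hepatocytes, which are rich in mitochondria, this ribosome supplies core subunits of the respiratory chain and of ATP synthase. The genes described here are the protein-coding rows of the deposited table whose mouse symbol starts with Mrpl or Mrps and a number, without pseudogenes. There were 77 such genes among 25690: 50 of the large subunit, 26 of the small subunit and Mrps36, which is now counted with the 2-oxoglutarate dehydrogenase complex. Structure-based names set the subunit, so Mrps18a and Mrps30 belong to the large subunit.

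The series holds RNA-seq of mouse hepatic tissue from a wildtype control group (3 libraries) and a group with hepatic FTO knockout (3 libraries), and compares transcript levels between these genotypes. FTO erases methyl marks, N6-methyladenosine among them, from RNA. The sources used here give neither strain, age and treatment nor the way the gene was deleted in liver. Since no label ties a library to its own animal, p-values reflect the spread among these libraries, which may be technical. Values are FPKM, fragments scaled to transcript length and to library size. Comparison of levels between genes is approximate, because libraries still differed by transcript length in these values. The 3 values of a group are always given in the order of its replicates 1, 2 and 3. In bulk tissue, fewer cells of a type and less RNA per cell cannot be told apart.

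Fto itself read 6.67, 6.02 and 6.40 FPKM (wild type) and 1.79, 3.83 and 2.66 FPKM (knockout), without overlap. Its log2 change was -1.0 (limma, SE 0.19, adjusted p = 0.0386), and the call was lost in 9 of the 15 alternatives that tested it, with adjusted p-values of 0.0605 to 0.197 there. Inferred depth was 34140000 to 42530000 fragments per library, a rough figure, since only values from 25000000 to 50000000 fragments were kept. The hepatocyte markers Apoa1, Ttr and Serpina1c were at 3982 FPKM or more in every library, while B cell markers summed to 1.09 FPKM or less. For Alb the table lists 0 in 1 library of each group. Summed T and NK cell markers reached at most 1.67 FPKM, neutrophil markers 11.7 FPKM and cholangiocyte markers 34.3 FPKM. Endothelial markers ran from 29.4 to 70.0 FPKM and stellate cell markers from 58.9 to 91.1 FPKM. The 3 erythroid markers summed to 230.3, 371.3 and 472.6 FPKM (wild type) and 225.5, 188.9 and 258.7 FPKM (knockout). The summed level of 8 Kupffer cell markers was 44.1, 73.7 and 138 FPKM (wild type) and 112 to 193 FPKM in knockout. Of 10405 tested genes, 115 (1.11%) were higher and 172 (1.65%) lower in knockout at an adjusted p under 0.05 (limma on log2(FPKM + 1), Benjamini-Hochberg). The split was 147 higher and 142 lower with libraries scaled to the sum over nuclear genes, and 128 higher and 103 lower with libraries scaled to the median of the mitochondrial ribosomal protein genes.

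All 77 genes were expressed, with no value of 0, and all passed the filter of 1 FPKM on the mean of the 6 libraries. Mean levels over the 6 libraries ran from 4.14 FPKM for Mrps26 to 170.5 FPKM for Mrpl52, a 41.2-fold range, with a median of 37.9 FPKM. The median of all tested genes was 7.17 FPKM. In all, 73 of the 77 genes reached 10 FPKM, against 41.4% of tested genes. The most abundant after Mrpl52, which encodes a protein found only in mitochondrial ribosomes, were Mrps21 (156 FPKM), Mrpl17 (132 FPKM) and Mrpl20 (103 FPKM), whose products have bacterial relatives. The least abundant after Mrps26 were Mrpl19 (7.44 FPKM), Mrpl35 (7.67 FPKM) and Mrpl57 (8.67 FPKM).

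This order of levels was nearly the same in every library. Across the 77 genes, Spearman's rho between 2 libraries was 0.98 to 0.99, and between the mean levels of the groups it was 0.992. These are correlations across genes that share a library, its depth and their transcript lengths, and are given as a description. Longer transcripts had lower FPKM, with a rho of -0.54 between level and median transcript length. The median level over libraries was similar for the large subunit genes (5.0 to 5.55 on the log2(FPKM + 1) scale) and the small subunit genes (5.12 to 5.63).

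None of the mitochondrial ribosomal protein genes differed between knockout and wild type at an adjusted p under 0.05. In limma 0 of 77 were higher and 0 lower. Only Mrpl45 had an unadjusted p under 0.05, on the lower side, 1 of 77 genes against 18.7% of tested genes in either direction. Log2 changes were above 0 for 43 genes and below 0 for 34, where 49.7% of tested genes were above 0, with a median of 0.01, beside a median of -0.00 over all tested genes. They ran from -0.38 (Mrpl45) to 0.40 (Mrpl47), and 73 of 77 lay within 0.25 of 0, as did 70.0% of tested genes. The middle part of the list was narrow, with quartiles of -0.08 and 0.07, against -0.16 and 0.15 for all tested genes.

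What these libraries could miss is set by the width of the intervals. The 95% interval of the log2 change lay within 1 of 0 for all 77 genes (91.9% of tested genes), so a 2-fold change in either direction was outside every interval. It lay within a 1.5-fold change for 61 of the 77 genes (66.2% of tested genes). Across the genes the interval reached 0.24 to 0.56 to either side of the estimate, with a median of 0.37. The lowest bound was -0.73 (Mrps33) and the highest 0.81 (Mrpl47).

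**Figure D1:**
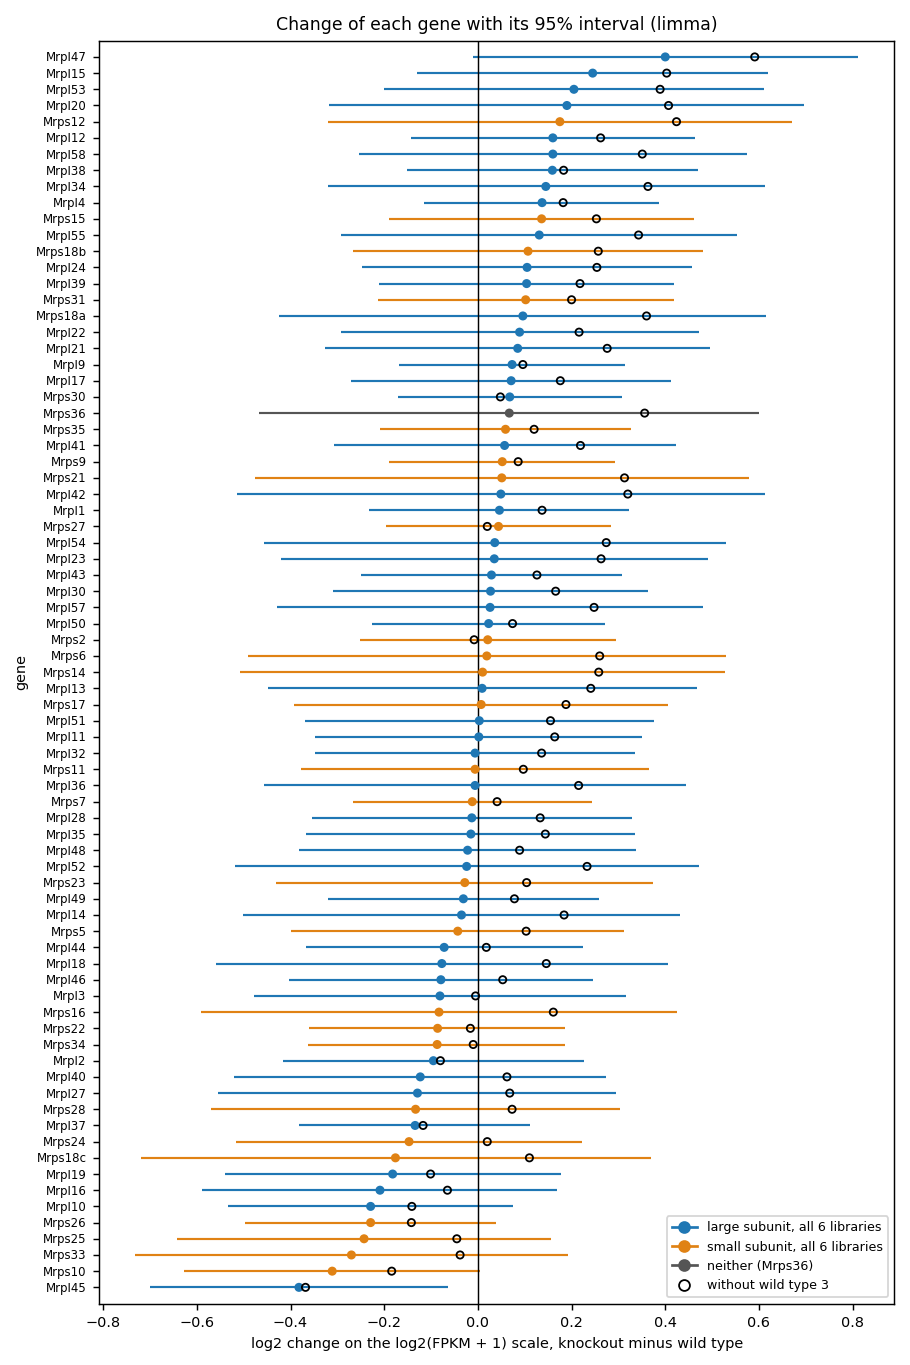
Log2 change on the log2(FPKM + 1) scale (x axis) for each of the 77 genes (y axis), with filled points and lines for the estimate and 95% interval from all 6 libraries and open circles for the estimate without wild type replicate 3. The intervals lie between -0.73 and 0.81, and the open circles have a median of 0.15 against 0.01 for the filled points.

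The level of these genes moved from library to library, mostly together, and the largest shift was inside the wild type group. The median log2(FPKM + 1) of the 77 genes was 5.08, 5.10 and 5.58 (wild type) and 5.25, 5.12 and 5.22 (knockout). Wild type replicate 3 was the highest of all 6 libraries for 55 of 77 genes, against 28.8% of tested genes, and the highest wild type library for 69 of 77, against 47.8%. Wild type replicate 1 was the lowest of the 6 libraries for 51 of 77 genes, against 23.1% of tested genes. The knockout libraries lay between these wild type extremes. Summed FPKM over the 77 genes was 2926, 3180 and 4386 (wild type) and 3605, 3327 and 3483 (knockout).

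Wild type replicate 3 exceeded the mean of wild type replicates 1 and 2 by a median of 0.44 on the log2 scale over the 77 genes, and by 0.05 over all tested genes. The largest such ratios were for Mrps36 (1.87-fold), Mrps18c (1.82-fold), Mrpl42 (1.77-fold) and Mrps18a (1.75-fold). The ratio was below 1 for Mrps2 (0.937), Mrps27 (0.947) and Mrps30 (0.954). The SD over wild type libraries was above that over knockout libraries for 67 of 77 genes, against 55.5% of tested genes. Median SDs on the log2 scale were 0.28 in wild type and 0.09 in knockout for these genes, and 0.16 and 0.14 for all tested genes.

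**Figure D2:**
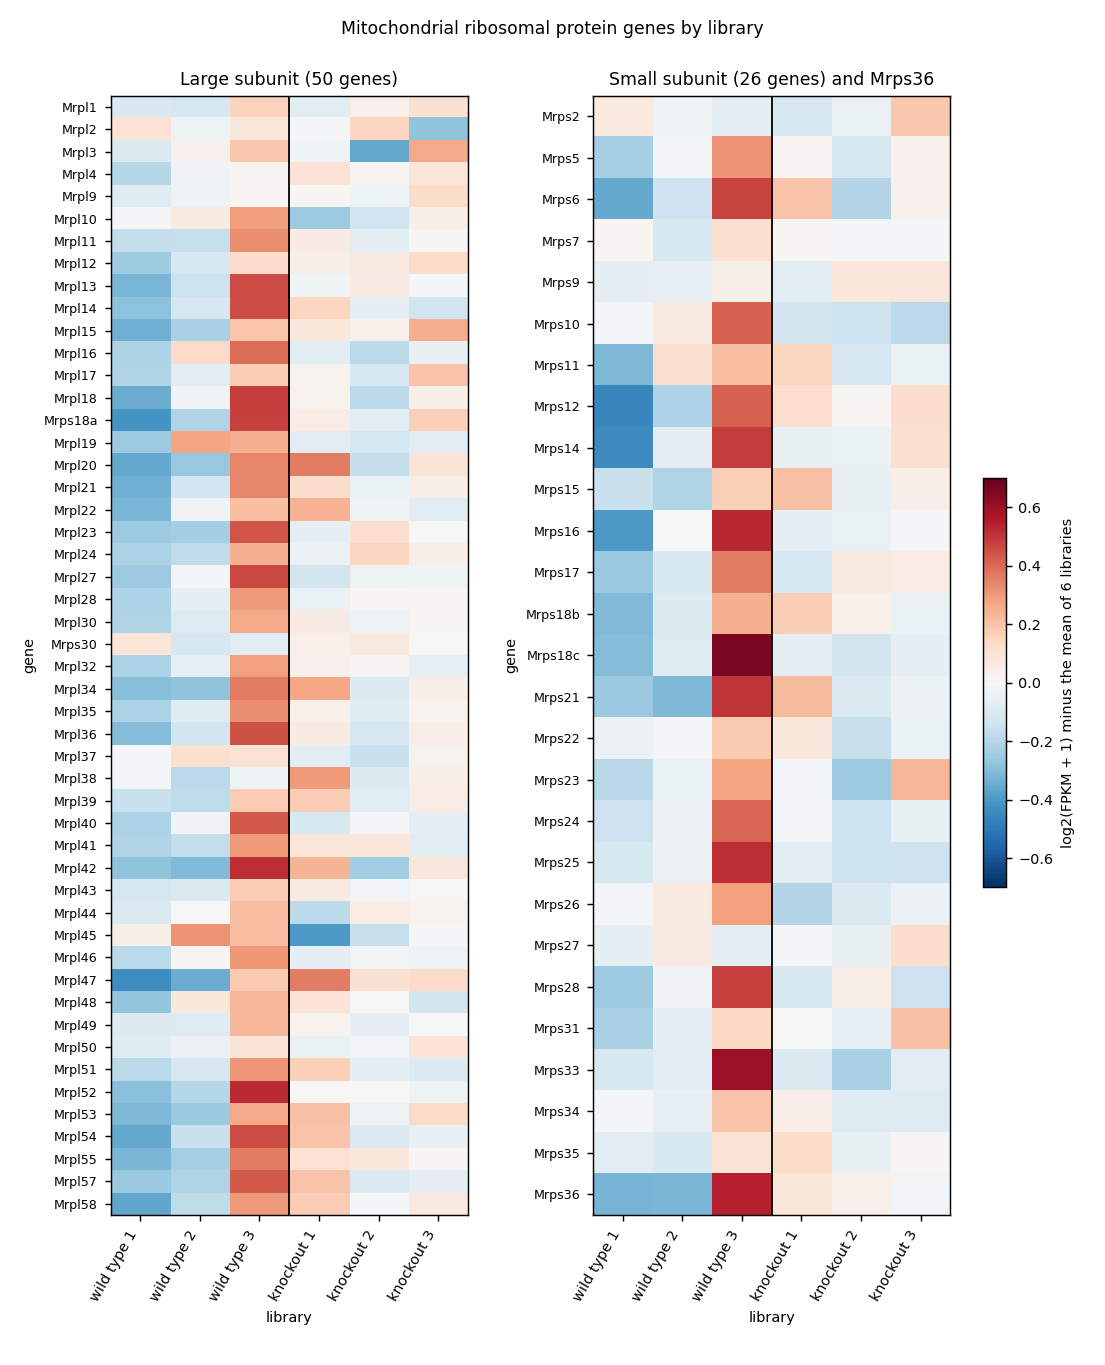
Level of each gene (rows, by subunit) in each library (columns), as log2(FPKM + 1) minus the mean of the 6 libraries, with red above and blue below that mean. The column of wild type replicate 3 is red for most rows, and that of wild type replicate 1 is blue for most.

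Without wild type replicate 3, 1 gene was higher in knockout and 0 were lower in limma, and the median log2 change of the 77 genes was 0.15. The background in that comparison was 2.56% of tested genes higher and 2.01% lower, with a median of 0.02. In all, 63 of the 77 estimates were positive, against 52.1% of tested genes. By unadjusted p-values under 0.05, 16 genes lay higher and 0 lower, beside 12.8% and 10.3% of tested genes. Of the 16, 13 belong to the large subunit, 2 (Mrps12 and Mrps21) to the small subunit, and the other is Mrps36. All knockout libraries lay above both remaining wild type libraries for 38 of the 77 genes, against 22.7% of tested genes. With wild type replicate 1 left out instead, the median was -0.09 and 21 of 77 changes were above 0 (47.7% of tested genes), so the direction of the list turned with the choice of library.

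Several other measures separated the same libraries. Transcripts under 800 bases were higher in wild type replicate 3 than in wild type replicates 1 and 2 by a median of 0.31 (1549 genes), while those of 3000 bases or more were lower, with a median of -0.12 (2677 genes). The mitochondrial ribosomal protein genes exceeded these values in both classes, with medians of 0.65 (24 genes) and 0.42 (9 genes). With a trend on transcript length removed from each library, their median log2 change over all 6 libraries was 0.00, and without wild type replicate 3 it was 0.12. In the latter, 1 gene was called higher and 0 lower (2.7% and 2.36% of tested genes), and 10 and 2 had an unadjusted p under 0.05 (12.5% and 10.6%). Nuclear genes of oxidative phosphorylation were higher in wild type replicate 3 by a median of 0.64, cytosolic ribosomal protein genes by 0.55 and the Kupffer cell markers by 1.08. Transcripts of the mitochondrial genome held 30.3%, 28.1% and 23.2% of the FPKM sum (wild type) and 23.8% to 27.2% in knockout. The part of the Kupffer cell markers and of the mitochondrial share in the result was not tested.

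**Figure D3:**
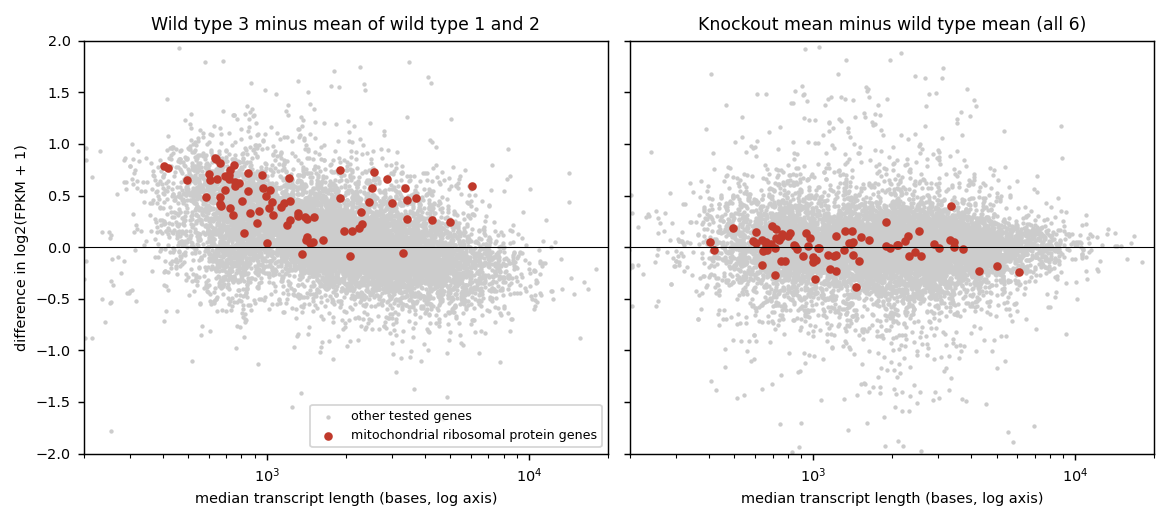
Difference in log2(FPKM + 1) (y axes) against median transcript length in bases (log x axes) for wild type replicate 3 minus the mean of wild type replicates 1 and 2 (left) and for the knockout mean minus the wild type mean (right); red points are the 77 genes and grey points other tested genes. The red points have a median of 0.44 on the left and 0.01 on the right.

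Among large subunit genes, Mrpl45 had the smallest p. Its product, mL45, binds the ribosome to the inner mitochondrial membrane. Mrpl45 (chromosome 11, 97315716 to 97329920, mm10) was at 13.6, 16.6 and 15.5 FPKM (wild type) and 9.73, 11.7 and 13.1 FPKM (knockout). All knockout libraries were below all wild type libraries, and this gene did not follow the rise of wild type replicate 3. The log2 change was -0.38 (95% interval -0.70 to -0.06; limma unadjusted p = 0.0246, adjusted p = 0.193). Without wild type replicate 3 it was -0.37.

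Mrpl47 encodes uL29m, a relative of bacterial L29 at the exit of the peptide tunnel. Mrpl47 (chromosome 3, 32725397 to 32737605) was at 12.9, 13.8 and 20.3 FPKM (wild type) and 23.1, 19.3 and 19.6 FPKM (knockout). The knockout libraries were all above wild type replicates 1 and 2, but wild type replicate 3 lay among them. Its log2 change was 0.40 (95% interval -0.01 to 0.81; limma adjusted p = 0.282). Without wild type replicate 3 the change was 0.59 (adjusted p = 0.0464), and this was the gene called in that comparison. Over all alternatives its adjusted p ran from 0.0352 to 0.601. Exons of Mrpl47 overlap Ndufb5 and Actl6a on the opposite strand, and no source used here says whether reads were counted by strand.

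Mrpl15, which encodes uL15m, was at 57.5, 62.0 and 83.2 FPKM (wild type) and 76.8, 74.5 and 86.9 FPKM (knockout). Its log2 change was 0.25 (95% interval -0.13 to 0.62; limma adjusted p = 0.471), and the groups overlapped through wild type replicate 3. Mrpl20 had a change of 0.19 (adjusted p = 0.706) and Mrpl4 of 0.14 (adjusted p = 0.554). On the lower side, Mrpl16 had a change of -0.21 (adjusted p = 0.548), Mrpl19 of -0.18 (adjusted p = 0.587) and Mrpl37 of -0.13 (adjusted p = 0.556). None of these genes passed the test, and in each the groups overlapped.

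The stalk of the large subunit, which recruits translation factors, is built by the products of Mrpl10 and Mrpl12 on a base that holds that of Mrpl11. Mrpl10 was at 21.8, 23.0 and 27.1 FPKM (wild type) and 18.3, 19.9 and 22.7 FPKM (knockout) (log2 change -0.23, limma adjusted p = 0.407). Mrpl12 was at 83.1, 91.5 and 108 FPKM (wild type) and 102, 104 and 109 FPKM (knockout) (log2 change 0.16, limma adjusted p = 0.568). Mrpl11 was at 10.2 ± 2.28 FPKM (wild type) and 10.1 ± 0.469 FPKM (knockout) (SD, n = 3 each). The stalk genes thus differed in level by up to an order of magnitude, and the estimates for Mrpl10 and Mrpl12 pointed in opposite directions without passing the test.

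Mrpl58 encodes a peptidyl-tRNA hydrolase that became a fixed part of the large subunit. Its level was 53.1 ± 13.3 FPKM (wild type) and 58.4 ± 3.91 FPKM (knockout) (SD, n = 3 each; log2 change 0.16, 95% interval -0.25 to 0.57). Mrpl36, which encodes the small bL36m, was at 30.6 ± 9.02 and 29.7 ± 2.06 FPKM, with a log2 change of -0.01 (95% interval -0.46 to 0.45). Mrpl52, the most abundant gene of the family, was at 137, 146 and 242 FPKM (wild type) and 168, 167 and 163 FPKM (knockout). Its knockout values were close to each other and lay inside the wild type range. Mrpl32, Mrpl35, Mrpl51 and Mrpl57 had log2 changes between -0.02 and 0.03.

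Among small subunit genes, Mrps10 had the smallest p. It encodes uS10m, a relative of bacterial S10. Mrps10 (chromosome 17, 47368887 to 47381417) was at 40.3, 42.4 and 54.2 FPKM (wild type) and 37.0, 36.4 and 35.5 FPKM (knockout). The groups did not overlap, and the knockout libraries were within 2 FPKM of each other. The log2 change was -0.31 (95% interval -0.63 to 0.00; limma adjusted p = 0.275) and -0.18 without wild type replicate 3.

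Mrps26, a mitochondria-specific subunit gene and the least abundant of the family, was at 4.09, 4.34 and 5.24 FPKM (wild type) and 3.44, 3.77 and 3.98 FPKM (knockout). Its log2 change was -0.23 (limma adjusted p = 0.346). Together with Mrpl45 and Mrps10 it made up the 3 genes whose groups did not overlap, all lower in knockout, a share of 3.90% against 13.0% of tested genes that were lower without overlap. No gene of the family was higher without overlap, against 11.5% of tested genes. Mrps25 (log2 change -0.24) and Mrps33 (-0.27) had larger estimates than Mrps26 but overlapping groups. In both, wild type replicate 3 stood far above the other 5 libraries, at 19.6 FPKM for Mrps25 and 152 FPKM for Mrps33.

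Mrps12 encodes uS12m, which lies at the decoding centre. It was at 61.0, 72.1 and 112 FPKM (wild type) and 91.3, 85.2 and 91.7 FPKM (knockout). The knockout libraries lay above wild type replicates 1 and 2 and below wild type replicate 3. Its log2 change was 0.18 with all libraries and 0.42 without wild type replicate 3 (limma adjusted p = 0.725 and 0.0863). Mrps15 and Mrps31 had changes of 0.14 and 0.10 and Mrps24 of -0.15, and none passed the test. For Mrps6, Mrps11, Mrps14 and Mrps17 the log2 change was between -0.01 and 0.02.

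Mrps18a, Mrps18b and Mrps18c are paralogues of 1 bacterial protein, and their products sit at different places, that of Mrps18a in the large subunit. Mrps18a was at 44.7 ± 15.6 FPKM (wild type) and 46.2 ± 3.98 FPKM (knockout), Mrps18b at 60.8 ± 12.3 and 64.9 ± 5.17 FPKM, and Mrps18c at 92.9 ± 34.9 and 78.6 ± 2.0 FPKM (SD, n = 3 each). Log2 changes were 0.10, 0.11 and -0.18, and none passed the test. Mrps18c was the highest of the 3 in each group. Mrps36 was at 16.8, 16.8 and 31.4 FPKM (wild type) and 22.6, 21.8 and 20.9 FPKM (knockout). Its values are uncertain, since a processed pseudogene of it, Mrps36-ps1, is a separate row of the table.

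**Figure D4:**
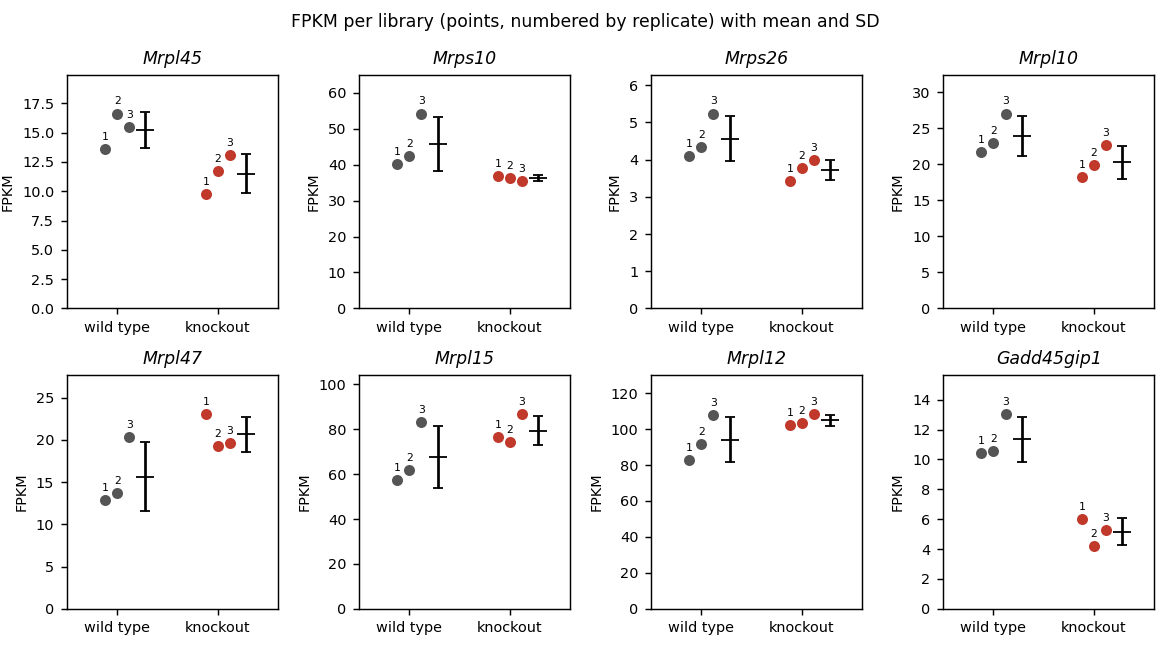
FPKM (y axes, from 0) in each library for 7 genes of the family and for Gadd45gip1; points are libraries numbered by replicate, with the mean and SD of each group (n = 3). The knockout points of Gadd45gip1 lie between 4.21 and 6.01, below its wild type points of 10.4 to 13.1, a wider gap than in the other panels.

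Large subunit genes were slightly higher relative to small subunit genes in the knockout libraries. The mean log2(FPKM + 1) of the 50 large subunit genes minus that of the 26 small subunit genes was 0.005, 0.002 and 0.005 (wild type) and 0.076, 0.072 and 0.049 (knockout). The groups did not overlap, and wild type replicate 3 was at the level of the other wild type libraries. The ratio of summed FPKM was 1.92, 1.94 and 1.86 (wild type) and 2.02, 2.01 and 1.99 (knockout). The difference between groups was 0.06 on the log2 scale, and 0.05 when the subunit was read from the symbol alone. The difference of the medians overlapped between groups, at -0.20 to -0.08 in wild type and -0.10 to -0.04 in knockout. No test was made of this balance, because the genes were chosen with results of these data known.

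Proteins with bacterial relatives and mitochondria-specific proteins form a second division of the family. The 47 genes of the first kind had a median log2 change of 0.01 and the 29 of the second of 0.00. Wild type replicate 3 exceeded wild type replicates 1 and 2 by a median of 0.47 in the first and 0.33 in the second. Median transcript lengths were 995 and 1398 bases. No difference between these classes was tested.

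Of 5 subunit genes listed under other symbols, Gadd45gip1 fell (limma, 0 called higher and 1 lower). It encodes mL64, also known as CRIF1, a large subunit protein near the tunnel exit that is needed for the insertion of new polypeptides into the inner membrane. Gadd45gip1 was at 10.4, 10.54 and 13.1 FPKM (wild type) and 6.01, 4.21 and 5.27 FPKM (knockout). All knockout libraries were below all wild type libraries. It fell 2.2-fold, with a log2 change of -1.01 (SE 0.15, 95% interval -1.34 to -0.67; limma adjusted p = 0.0147). The call was lost without knockout replicate 3 (adjusted p = 0.0735) and with no filter on low values (0.120), and otherwise held, with adjusted p-values of 0.0108 to 0.0496.

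Gadd45gip1 lies on chromosome 8 (84831522 to 84835482, mm10), 6.48 Mb from Fto. Within 0.5 Mb of it, 26 other genes were tested, of which limma called 6 lower and 2 higher at an adjusted p under 0.05, beside 1.65% and 1.11% of all tested genes. The other genes of this kind were not called. Dap3, which encodes a GTP-binding subunit, had a log2 change of -0.19, Ptcd3, which encodes a subunit with pentatricopeptide repeats, of -0.22, Aurkaip1 of -0.08 and Chchd1 of 0.05. Their adjusted p-values in limma were 0.357 to 0.950.

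Further lists of mitochondrial translation and gene expression were small, so few calls were to be had at the background of 1.11% higher and 1.65% lower. Among all tested genes, 8.65% lay higher and 1043 of 10405 lower with an unadjusted p under 0.05, together 18.7%. Of 15 translation factors and related genes, among them Letm1, Oxa1l, Pdf and Mtfmt, 0 were called and 0 had an unadjusted p under 0.05. The median log2 change of this list was -0.14. Tufm, the mitochondrial elongation factor, was at 38, 42 and 49.6 FPKM (wild type) and 37.7, 37.3 and 40.3 FPKM (knockout). Letm1, Gfm2, Mtrf1 and Mtif2 had the smallest p-values of this list, with log2 changes of -0.20 to -0.22 and adjusted p-values of 0.333 to 0.468. Of 18 tested aminoacyl-tRNA synthetase and amidotransferase genes, limma called 0, 14 had changes below 0, and the unadjusted p was under 0.05 for 0 higher and 2 lower genes, where 49.7% of tested genes had changes above 0. Those 2 were Gatb (log2 change -0.38) and Iars2 (-0.28), which encode an amidotransferase subunit and the isoleucyl-tRNA synthetase.

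Of 26 tested genes of mitoribosome assembly and ribosomal RNA modification, limma called 0, and the unadjusted p was under 0.05 for 2 higher and 2 lower genes, a share near the background. Mettl15, a methyltransferase gene for the small subunit RNA, was at 1.68, 1.75 and 2.51 FPKM (wild type) and 0.713, 1.15 and 1.15 FPKM (knockout) (adjusted p = 0.0991). Trub2 had a log2 change of -0.45, and Mterf3 and Mrm3 of 0.26 and 0.25. Of 14 genes of mitochondrial transcription and DNA maintenance, limma called 0, and the unadjusted p was under 0.05 for 1 higher (Lrpprc, log2 change 0.36) and 1 lower (Top1mt, -0.37). Lrpprc stabilises messenger RNAs of the mitochondrial genome. It was at 22.8, 20.3 and 17.9 FPKM (wild type) and 26.4, 25 and 27.2 FPKM (knockout), without overlap (adjusted p = 0.168). Without wild type replicate 3, the counts at an unadjusted p under 0.05 for higher and lower genes were 1 and 0 for the translation factors, 0 and 1 for the synthetases, 2 and 1 for the assembly genes, 1 and 2 for the transcription genes, and 1 and 1 for the biogenesis regulators, with 0 called in limma.

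Regulators of mitochondrial biogenesis were measured next to their possible targets. Of 8 tested regulators limma called 0, and the unadjusted p was under 0.05 for 1 higher and 0 lower genes. Nrf1, a transcription factor of nuclear genes for mitochondrial proteins, was at 2.83, 2.35 and 2.0 FPKM (wild type) and 4.47, 3.68 and 4.07 FPKM (knockout). The groups did not overlap, and the log2 change of 0.58 (95% interval 0.29 to 0.87) had an adjusted p of 0.0561. Ppargc1a, which encodes the coactivator PGC-1 alpha, was at 2.26 ± 1.25 FPKM (wild type) and 1.17 ± 0.509 FPKM (knockout) (SD, n = 3 each; adjusted p = 0.345). Gabpa and Yy1 had log2 changes of -0.04 and 0.13.

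The products of mitochondrial translation are encoded by the mitochondrial genome, and limma called 0 of its 13 protein genes, and the unadjusted p was under 0.05 for 0 higher genes and 1 lower gene. The median log2 change of the 13 was -0.18. The lower gene, mt-Cytb, which encodes cytochrome b, was at 12687, 12170 and 9873 FPKM (wild type) and 8546, 9252 and 8830 FPKM (knockout) (log2 change -0.38, adjusted p = 0.236). Without wild type replicate 3, 6 of the 13 lay lower and none higher at that threshold, against 10.3% of tested genes lower, and the median was -0.24. Summed over the 13 genes, wild type libraries held 255617, 253514 and 250189 FPKM and knockout libraries 214876, 242169 and 225706 FPKM. Single genes differed in order, and mt-Nd3, mt-Co2 and mt-Co3 were highest in wild type replicate 3.

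**Figure D5:**
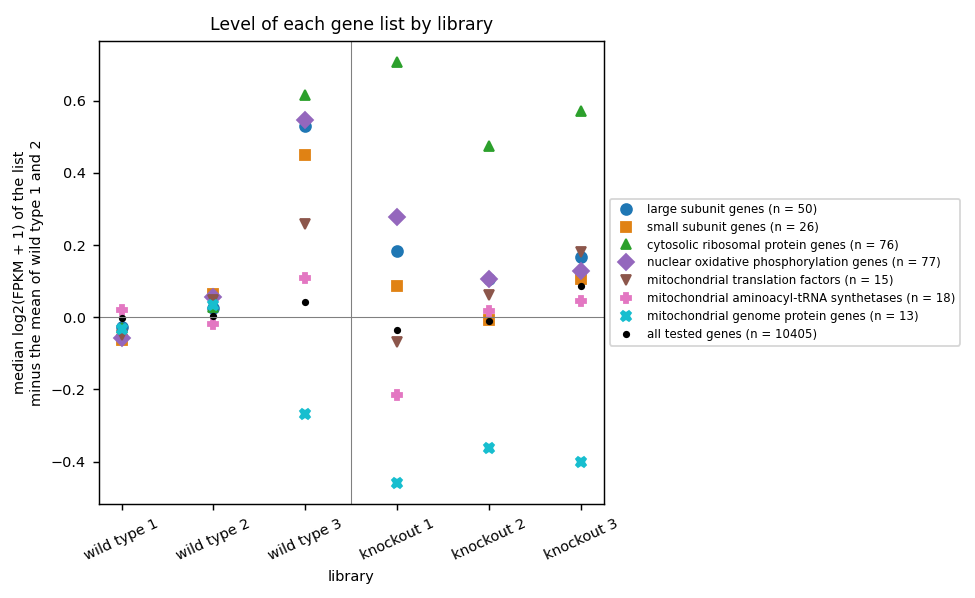
Median log2(FPKM + 1) of each gene list in each library, minus the mean of its values in wild type replicates 1 and 2 (y axis), for the 6 libraries (x axis). Both subunits lie near 0.5 in wild type replicate 3 and nearer to 0 in the knockout libraries, whereas cytosolic ribosomal protein genes are high in all 4 of these libraries.

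Cytosolic ribosomal protein genes differed from the mitochondrial ones in the knockout libraries. Of 76 tested, limma called 0, and the unadjusted p was under 0.05 for 38 higher and 0 lower genes, beside 8.65% of tested genes higher. The median log2 change was 0.40, and without wild type replicate 3 limma called 46 higher and 0 lower, beside 2.56% and 2.01% of tested genes. Their median log2(FPKM + 1) was 8.40, 8.46 and 9.04 (wild type) and 9.14, 8.90 and 9.0 (knockout). Both families were thus high in wild type replicate 3, but in the knockout libraries the cytosolic family stayed near that level and the mitochondrial family did not. The difference between the families was not tested. Of 77 tested nuclear genes of oxidative phosphorylation, limma called 0, none had an unadjusted p under 0.05, and the median log2 change was -0.09. Without wild type replicate 3, 16 were higher and 0 lower at that threshold, beside 12.8% and 10.3% of tested genes, and the median was 0.15.

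The promoters of the family were read for letters recognised by factors of mitochondrial biogenesis. RefSeq windows of build GRCm38.p6, from 250 bases before to 50 bases after each start, were present for 68 of the 77 genes and 7956 tested genes. The letters of YY1, the capitals in the windows given here with any base at the third place, were searched on both strands and found for 7 of the 68 genes (10.3%), 3.2% of tested genes and 1.2% of all genes with a window. The 8 letters of ETS factors such as GABPA, CCGGAAGT, were found for 11 (16.2%), against 10.2% of tested genes and 4.3% of all. The letters of NRF1, likewise the capitals in its windows, read the same on both strands and were found for 3 (4.4%), against 2.5% and 1.1%. At least 1 of the 3 motifs was found for 19 of the 68 (27.9%) and for 15.3% of tested genes. Each motif was searched on its own, and Mrpl27 and Mrps27 held 2 of them. Outside these 3, the SP1 letters GGGGCGGGG were found for 13 of 68 (19.1%), against 24.6% of tested genes, and TATAAA was found for 5 (7.4%), against 9.2% of tested genes. CCAAT was found for 26 (38.2%), against 43.3% of tested genes.

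The YY1 matches are shown because 6 of the 7 began 9 to 27 bases after the start, on the strand of the gene. Their letters hold ATG, and whether these matches mark the first codon rather than a factor site was not tested. Each window has 30 bases on the gene's strand, 5′ to 3′, with the match in capitals.
Mrpl27, chr11:94653790-94653819 (+): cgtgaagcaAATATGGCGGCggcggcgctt
Mrpl35, chr6:71823741-71823770 (-): gcaggctgcAAGATGGCGGCttccatcttc
Mrpl37, chr4:107066820-107066849 (-): gcacgggcaAAGATGGCGGCgtccaggtag
Mrps18a, chr17:46111006-46111035 (+): gtgcgttccAAGATGGCGGCcctcagggct
Mrps27, chr13:99344791-99344820 (+): gtgcgctccAAGATGGCGGCtcccatggtg
Mrps30, chr13:118387217-118387246 (-): cggcgggcgAAAATGGCGGCggccaggtat
Mrps11, chr7:78783012-78783041 (+): cctacgggcGCCGCCATCTTtctgtcttcc
The window of Mrps11 holds the match on the other strand, 110 bases before the start.

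The NRF1 matches lay 28 to 125 bases before the start of Mrpl9, Mrpl32 and Mrpl39.
Mrpl9, chr3:94443299-94443328 (+): ggcgcagctGCGCATGCGCggggtccttct
Mrpl32, chr13:14613104-14613133 (-): ttgacccttGCGCATGCGCaagaggggcct
Mrpl39, chr16:84735349-84735378 (-): aggagaggcGCGCATGCGCccccgcgtggc
Log2 changes of these genes were 0.07 (Mrpl9), -0.01 (Mrpl32) and 0.10 (Mrpl39). Those of the 7 genes with YY1 letters ran from -0.13 to 0.10. A match is a description of the letters in the window and does not show that a factor binds there.

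Genes of the family lie on 17 chromosomes, with 11 on chromosome 11. For 18 of the 77 (23.4%) the start of another protein-coding gene lay within 1000 bases upstream on the opposite strand, against 11.1% of 9785 tested protein-coding genes. Examples are Mrps12 with Sars2 (172 bases), whose product charges tRNA in mitochondria, Mrpl32 with the proteasome gene Psma2 (75 bases) and Mrpl49 with the ribosomal protein gene Fau (59 bases). In annotation, 20 of the 77 genes overlap an exon of a protein-coding gene on the opposite strand, among them Mrpl46 and Mrps11, which overlap each other. On the same strand, 4 genes overlap such an exon. Values of genes with an opposite-strand overlap are uncertain where reads were not assigned by strand. Assignment by strand would not separate the same-strand overlaps, so those values are uncertain either way.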

How the data were processed

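RNA-seq of mouse hepatic tissue was deposited as 1 table of FPKM values for 25690 Ensembl identifiers in 6 libraries. The unit was read from the values deposited by the authors and from the submitters' processing notes, which name TopHat2 2.1.0, HTSeq, Cufflinks 2.2.1 and build mm10, without the role of each. No source used here names the annotation release. Symbols, coordinates and transcript lengths came from GENCODE M21 (GRCm38), which matched 24853 rows. Subunits followed the structure-based names of the proteins.

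Groups came from the genotype label; replicate numbers follow sample order and pair no libraries. Where the 6 libraries averaged 1 FPKM or more, a gene entered limma 3.58.1 in R 4.3.3 (two-sided, variance trend on level) as log2(FPKM + 1), with Benjamini-Hochberg adjustment over all 10405 genes. Log2 changes on this scale understate those of low genes. Depth was inferred from 965 single-transcript genes of 3000 to 8000 bases, as the median over values that give 25000000 to 50000000 fragments when read as 1 fragment. That range bounds the estimate, so the depth is a rough figure. If it holds, the least covered gene of the family had about 204 fragments in its lowest library. No count model was used, since counts were not recovered. When the knockout comparison was tested on simulated data (10405 genes), limma called 71 of 100 genes given a log2 change of 1, 96 of 100 given 2, and 3 genes given none, of 170 calls. The simulated noise was independent between genes and libraries, so it held no shift shared across genes like that in wild type replicate 3.

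Alternatives were median ratio size factors, quantile normalization, scaling to the sum over nuclear genes, a pseudocount of 0.1, no filter, a mean of at least 5 FPKM, robust empirical Bayes, removal of a transcript length trend (lowess, span 0.3) and leaving out each library with the tested genes kept. Scaling to the median of the family, and length trend removal without wild type replicate 3, were added after seeing the data. Cytosolic ribosomal protein and oxidative phosphorylation genes were chosen by symbol pattern. The genes, lists and tests were chosen with earlier results of these data known. Genes were named by a rule: per subunit the 8 smallest and 4 largest p-values and the 2 extreme changes per direction, the 4 highest and 4 lowest levels, stalk genes, Mrps18 paralogues, Mrpl36, Mrpl58, Mrps36, Fto, and called or up to 4 leading genes of each list. Other genes named, such as those for promoter motifs and neighbours, were chosen after their values were seen. Mrpl33 and Spg7 were not analysed here.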

Additional observations from a re-analysis of the deposited data

How the results depend on the processing

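Over planned settings, the median log2 change of the family was 0.00 to 0.06 under other scalings, filters, pseudocounts and length trend removal. With libraries scaled to the family's own median it was 0.07. That scaling takes the family as its reference and holds this value near 0, so it cannot judge the family's change or its calls. With 1 library left out it was -0.09 to 0.15. The SD between libraries of a group (0.21) rests largely on wild type replicate 3, so it cannot judge the change found without that library. The family had 0 genes called in either direction by limma, except 1 higher without wild type replicate 3 and 1 higher with the length trend also removed; leaving out single libraries gave 0 to 1 higher. Among all tested genes, 115 were higher and 172 lower. Higher genes numbered 34 with no filter, 69 with a mean of at least 5 FPKM, 180 with quantile normalization, 279 with the length trend removed and without wild type replicate 3, and 38 to 266 with 1 library left out. Lower genes numbered 45 with no filter, 96 with a mean of at least 5 FPKM, 103 with libraries scaled to the family's median, and 39 to 209 with 1 library left out. The cause was not tested. With no filter, 25690 genes entered both the variance trend and the adjustment, and the parts of these were not separated. Of 36 named genes of the family, 12 changed sign without wild type replicate 1 and 7 without wild type replicate 3. No paired analysis was possible because the labels give no replicate numbers shared between the groups. Depth is inferred, so no counting interval is given.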

Other observations

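Of the 18 genes that start back to back with another gene, 14 had a tested partner, and limma called 1 of these partners, that of Mrps18b, beside 1.65% of tested genes called lower and 1.11% called higher. Ppp1r10, which begins 45 bases away on the opposite strand, had a log2 change of -0.57 (limma adjusted p = 0.0492), while Mrps18b had 0.11 (adjusted p = 0.785). The difference between these partners was not tested, and the pair was picked after its values were seen.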
